A study of Mus musculus with 2 samples.

Results

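The posterior Hox genes are homeobox transcription factor genes of paralog groups 9 to 13. They sit at one end of each Hox cluster, are switched on late in the embryo and close to its tail, and give trunk, limb, genital and hindgut tissues their position along the body axis. Group 13 marks the level of the cloaca, from which rectum and anal canal both arise, and adult epithelia and fibroblasts keep part of such a positional pattern. The genes followed here were Hoxa9, Hoxa10, Hoxa11, Hoxa13, Hoxb9, Hoxb13, Hoxd10, Hoxd11, Hoxd12 and Hoxd13. They were chosen by name, not by a measured value, though earlier results of these data were known. These genes make up 10 of the 31054 features of the normal count table and 10 of the 32285 features of the wounded one. The mouse has 29 other Hox genes, and both tables list all of them.

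The cells came from the anorectal junction of the mouse, where the single-layered glandular rectum meets the stratified anal canal at a transition zone (TZ). Tissue of at least 5 K17CreERT2;R26RGFP mice of the C57/BL6J strain, in which the Krt17 promoter drives a tamoxifen-inducible Cre that switches on a ZsGreen1 reporter, was pooled after tamoxifen for each library. Females and males were used. The normal library was made from unwounded mice, and the wounded library from mice 1 week after hot EDTA and an electric brush had removed rectal crypts near the TZ, at an age of 2 to 4 months. Both libraries therefore carry the reporter and tamoxifen, and each is 1 pool with no replicate. The sorting protocol took mice after 2 days of tamoxifen, while the wounded mice had tamoxifen before the wound. The time since tamoxifen thus differed between the libraries as well, and the wounded mice also received METACAM. Living cells were sorted for EpCam and against CD45, CD11b, CD31 and PDGFRa, and sequenced by the 10x 3' method, which counts molecules by UMIs.

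The normal library held 1548 cells that passed the study's filters on detected genes and mitochondrial UMIs, and the wounded library 5225, at median depths of 9440 and 10041 UMIs. Cluster names are deposited for 939 normal cells (Anal Canal, Basal, Rectum and Suprabasal) and for 4147 wounded cells (Basal, Hybrid, Rectum, Regeneration, Suprabasal and Wound_Stress). Of the 939 named normal cells, 1 did not pass the filters and was kept under its name. Anal gland, hair follicle and fibroblast clusters had been taken out before deposit. The passing cells without a name, 610 normal and 1078 wounded, were kept here as a group of their own, called the cells left out. The libraries shared 0 cell barcodes. Median depth lay between 8437.5 and 12616 UMIs in all named clusters but the Hybrid cells, with 2390. All 11 colonocyte markers were present in the Rectum cells of both libraries, as the label says. The wounded cluster named Basal shared 10 of its 20 leading genes with the normal Anal Canal and 0 with the normal Basal cells, so equal names did not mark like cells there.

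Levels are given as CPM, the summed UMIs of a gene per 1000000 summed UMIs of its group of cells, with an exact Poisson interval at 95% in parentheses. Cells of 1 pool are not replicates, so no test was possible, and all intervals cover counting error only. Counts from the 3' end are not scaled by transcript length, so levels are compared between groups and not between genes.

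Promoter sequence is shown for 3 of the genes as examples of members with different levels. Among the named clusters Hoxa13 and Hoxd13 were highest in the Rectum, and Hoxa9 was not. Each line holds the 250 bases before the RefSeq transcription start (GRCm38.p6), read 5' to 3' on the strand of the gene, with capitals for 2 motifs (CCAAT boxes, also as ATTGG on the other strand, and GC boxes, read GGGCGG or on the other strand as CCGCCC, overlapping matches counted). Hoxa13 lies at chr6:52260881-52261130 on the minus strand, Hoxd13 at chr2:74667975-74668224 on the plus strand, and Hoxa9 at chr6:52227371-52227620 on the minus strand.
Hoxa13: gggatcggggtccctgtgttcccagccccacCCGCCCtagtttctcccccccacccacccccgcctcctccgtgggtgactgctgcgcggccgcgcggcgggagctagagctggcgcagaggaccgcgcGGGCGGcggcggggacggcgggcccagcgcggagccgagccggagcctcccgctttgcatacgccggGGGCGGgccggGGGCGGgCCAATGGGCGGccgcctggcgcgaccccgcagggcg
Hoxd13: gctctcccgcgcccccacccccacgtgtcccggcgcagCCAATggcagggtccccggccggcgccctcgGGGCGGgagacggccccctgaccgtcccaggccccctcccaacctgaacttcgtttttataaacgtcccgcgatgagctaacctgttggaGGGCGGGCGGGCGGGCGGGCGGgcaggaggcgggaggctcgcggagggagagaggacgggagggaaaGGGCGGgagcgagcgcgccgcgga
Hoxa9: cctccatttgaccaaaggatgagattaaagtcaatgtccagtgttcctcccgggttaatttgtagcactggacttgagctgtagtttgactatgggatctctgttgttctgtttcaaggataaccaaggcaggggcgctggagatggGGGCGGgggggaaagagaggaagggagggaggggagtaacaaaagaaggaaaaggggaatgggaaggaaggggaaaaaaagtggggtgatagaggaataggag
The Hoxa13 stretch held 35 CG dinucleotides, 5 GC boxes and 1 CCAAT box, and the Hoxd13 stretch 31, 7 and 1. The Hoxa9 stretch held 3 CG dinucleotides, 1 GC box and no CCAAT box. Over 32851 promoters of the same length the median was 6 CG dinucleotides, 32.7% held a GC box and 33.9% a CCAAT box. The promoters of Hoxa13 and Hoxd13 thus had more CG dinucleotides than 97.0% and 94.8% of all promoters, and that of Hoxa9 more than 29.0%. The other members did not divide in this way: of the 2 stretches matched for Hoxd11, which was also highest in the Rectum, one held 2 CG dinucleotides and the other 20, those of Hoxa10 held 7 and 20, and Hoxd12, Hoxa11 and Hoxd10 held 10, 13 and 20. The letters TTTATTG or CAATAAA, a core that posterior Hox proteins bind, were in 4.20% of promoters and in none of the 10 promoter stretches found for 8 of the members. For Hoxb9 and Hoxb13 no promoter stretch was matched.

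Hoxb13, a group 13 gene known from the prostate and the distal colon, lies apart from the rest of its cluster at chr11:96194316-96197447. In the normal library it reached 547 CPM (493 to 604) in Rectum cells, 43.4 (37.4 to 49.99) in Anal Canal, 17.4 (12.8 to 23.1) in Basal and 2.63 (0.965 to 5.72) in Suprabasal cells. In the wounded library it reached 331 CPM (314 to 349) in Rectum, 108 (91.8 to 126) in Hybrid, 26.3 (22.3 to 30.9) in Basal, 3.89 in Suprabasal, 3.23 in Regeneration and 2.41 (1.43 to 3.81) in Wound_Stress cells. The Rectum cells were thus 12.6-fold above the next normal cluster, the Anal Canal, and 3.07-fold above the next wounded cluster, the Hybrid cells, and in neither library did the intervals meet. The cells left out held 1.00 CPM (normal) and 2.53 CPM (wounded). Of the 47 normal Basal UMIs, 44 lay in 5 cells rich in genes of gut hormone cells, and the other 252 cells stood at 1.12 CPM. The Hybrid level rested mostly on 59 cells of a like kind, and both sets are described below.

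Cell by cell, 90.5% of normal Rectum cells and 76.8% of wounded Rectum cells had at least 1 Hoxb13 UMI. With every cell thinned to 2000 UMIs the shares were 50% (36.8 to 63.2, exact Clopper-Pearson; 30 of 60 cells) and 43.2% (38.0 to 48.6; 153 of 354). In Suprabasal cells, a stratified layer with a like or greater depth, they were 2.67% and 3.29% before thinning, and 0.546% and 0.490% after it. At equal depth the intervals of the 2 Rectum clusters overlapped, and both lay far above the stratified layers.

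Hoxd13, which patterns the digits and the muscle of the anal sphincter, stood at 95.1 CPM (73.7 to 121) in normal Rectum, 15.5 in Anal Canal, 2.59 in Basal and 0 UMIs in Suprabasal cells, which allows up to 1.31 CPM at 3 UMIs. After wounding it was 75.9 CPM (67.7 to 84.8) in Rectum, 23.6 in Hybrid and 8.89 in Basal cells, and between 2.08 and 2.76 in the other named clusters. Hoxa13, needed for the hindgut and the genital tubercle, was lower in count but had the same order at its top. It stood at 27.0 CPM (16.2 to 42.1; 19 UMIs) in normal Rectum and 24.8 (20.2 to 30.1; 102 UMIs) in wounded Rectum, against 2.05 (0.939 to 3.90) in Anal Canal and 8.09 (4.18 to 14.1) in Hybrid cells, the clusters next in order. Among the named clusters all 3 group 13 genes were therefore highest in the Rectum in both libraries, with no overlap of intervals with the next cluster. Fibroblast-like cells left out, described below, held Hoxa13 at 68.1 CPM (55.6 to 82.5) in the wounded and 18.6 CPM (4 UMIs) in the normal library.

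Hoxd12, the neighbour of Hoxd13 and a partner of it in sphincter muscle, was rare. It had 6 UMIs in normal Rectum cells (8.52 CPM; 3.13 to 18.5) and 0 in each normal stratified cluster. The wounded Rectum held 35 UMIs (8.51 CPM; 5.93 to 11.8), against 3 in Hybrid cells and 6 in all stratified cells together.

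Within group 11, Hoxa11 did not follow group 13. Hoxa11, known for the kidney, the forearm and the uterus, was at 7.08 CPM (4.81 to 10.0; 31 UMIs) in the Anal Canal and at 0 UMIs in normal Rectum, which allows up to 4.26 CPM. In the wounded library it was highest in Basal cells, at 5.4 CPM (3.67 to 7.67; 31 UMIs), against 1.95 (0.840 to 3.83; 8 UMIs) in Rectum, where the intervals just met. Regeneration, Suprabasal and Wound_Stress cells held 1 UMI each. Among the named clusters Hoxa11 was thus highest, at a low level, in the stratified cells that share leading genes of the anal canal. It was no marker of them, since fibroblast-like cells left out, described below, held 55.8 CPM (normal) and 26.2 CPM (wounded). Its antisense RNA Hoxa11os, which only the wounded table lists, had 118 CPM in wounded Rectum cells and 8.66 in the stratified cells. Whether strand was used in counting is not given in the sources used here. The part of Hoxa11os in the 8 Hoxa11 UMIs of those Rectum cells was not tested.

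Hoxd11, a partner of Hoxa11 in limb and kidney, was at 35.5 CPM (23.0 to 52.4) in normal Rectum and 24.0 (19.6 to 29.0) in Anal Canal, with intervals that overlapped, and at 3.70 in Basal and 0 UMIs in Suprabasal cells. After wounding it reached 72.0 CPM (64.0 to 80.7) in Rectum, and the same 31.7 CPM in Basal (27.3 to 36.7) and Hybrid cells (23.3 to 42.1). The other wounded clusters lay between 4.38 and 5.76 CPM.

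Hoxa10, best known from the uterus and blood, stood at 51.1 CPM (35.8 to 70.8) in normal Rectum, 21.9 (17.7 to 26.8) in Anal Canal, 6.28 in Basal and 2.63 in Suprabasal cells. It was at 26.3 CPM (21.6 to 31.7) in wounded Rectum, 16.2 (13.1 to 19.8) in Basal and 14.8 (9.30 to 22.5) in Hybrid cells, of which the last overlapped the Rectum. Hoxd10, active in hindlimb motor neurons, had 12 UMIs (17.0 CPM; 8.81 to 29.8) in normal Rectum and 34 UMIs (7.76 CPM; 5.37 to 10.8) in Anal Canal, and its order between the 2 was not resolved at this depth. In wounded cells it was at 7.30 CPM (4.92 to 10.4) in Rectum and 4.01 (2.54 to 6.01) in Basal cells, again with overlapping intervals. Among the named clusters both group 10 genes thus sat in rectum and in anal canal-type cells, and were low in the Suprabasal and the normal Basal cells. Fibroblast-like cells left out, described below, held Hoxa10 at 88.4 CPM (normal; 19 UMIs) and 72.7 CPM (wounded).

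Hoxb9, a gene of the thoracic skeleton, behaved like group 13. It was at 42.6 CPM (28.7 to 60.8; 30 UMIs) in normal Rectum and at 2.05 to 3.33 CPM in Anal Canal and Basal cells. Wounded Rectum and Hybrid cells both stood at 38.4 CPM (32.7 to 44.9, and 29.1 to 49.8), and no other named cluster was above 2.61.

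Hoxa9, a gene of blood progenitors and their leukaemias, had another pattern. In the normal library it was at 67.3 CPM (59.9 to 75.5) in Anal Canal, 65.8 (56.5 to 76.2) in Basal, 61.1 (44.2 to 82.3) in Rectum and 33.3 (26.2 to 41.7) in Suprabasal cells, so the first 3 did not differ beyond counting error. In the wounded library it was highest in Wound_Stress cells, at 188 CPM (178 to 198), then in Regeneration cells, at 116 (110 to 122). Hybrid (78.9), Rectum (69.6) and Basal cells (67.9) followed with overlapping intervals, and Suprabasal cells came last at 46.9 (43.1 to 51.0). At 2000 UMIs a cell, 33.3% (30.03 to 36.6; 272 of 818) of Wound_Stress cells had a Hoxa9 UMI, against 17.4% (15.1 to 19.96; 172 of 986) of Regeneration and 8.24% (6.62 to 10.1; 84 of 1020) of Suprabasal cells. The unthinned shares were 72.7%, 61.8% and 36.0%. Hoxa9 made up 90.9% of all member UMIs in Wound_Stress cells, while Hoxb13 made up 61.8% of them in normal Rectum and 50.5% in wounded Rectum cells.

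**Figure D1:**
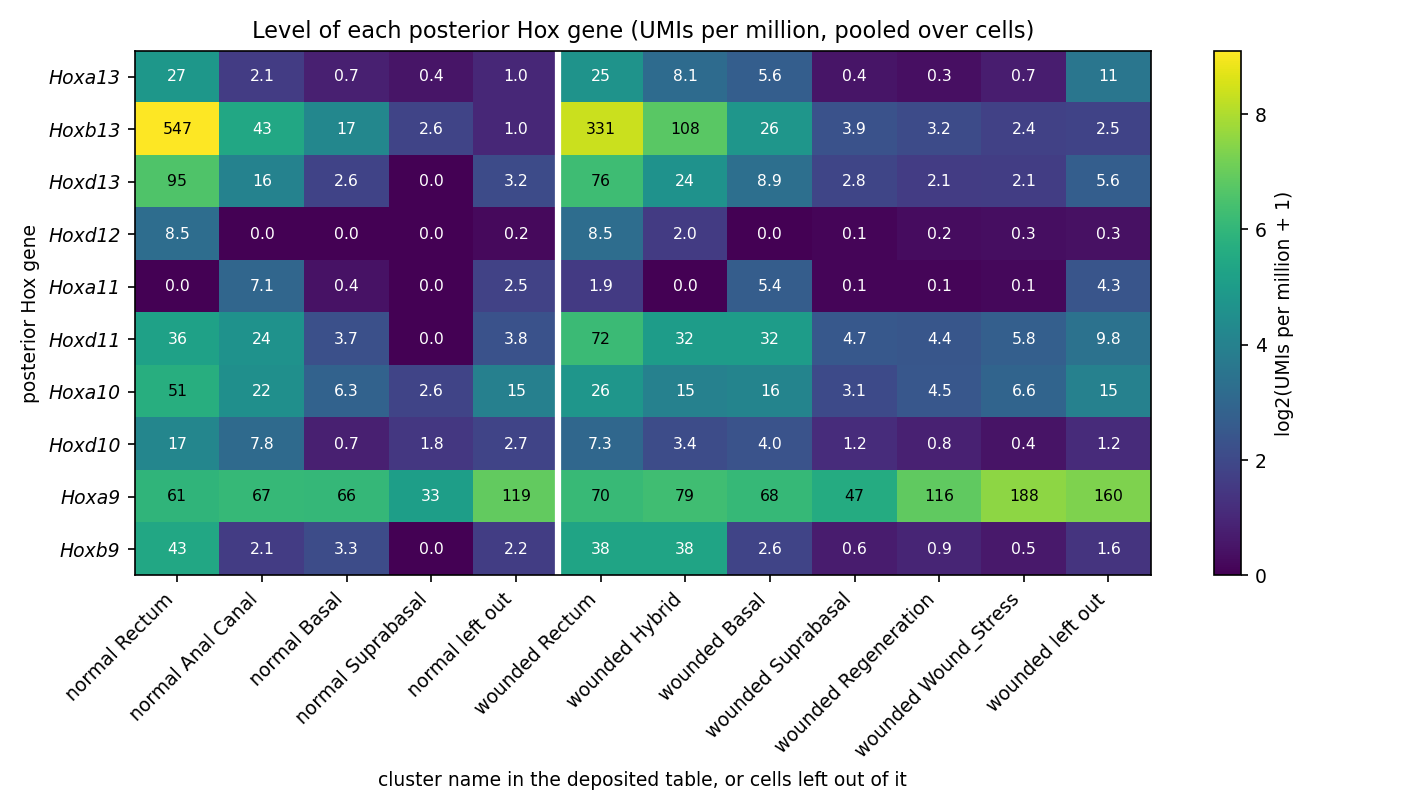
Level of each posterior Hox gene (rows) in each named cluster and in the cells left out (columns) of the normal and the wounded library, in CPM with the colour as log2(CPM + 1). Hoxb13 stands out in the Rectum columns (547 and 331 CPM), and Hoxa9 is at 33.3 CPM or above in every column, with 188 CPM in Wound_Stress cells.

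In each library 8 of the 10 members, all but Hoxa9 and Hoxa11, had their highest CPM in the Rectum among the named clusters. For Hoxd10 in both libraries, Hoxd11 in the normal and Hoxb9 in the wounded one, the interval met that of the next cluster. By the share of cells with a UMI at 2000 UMIs a cell, 7 members were highest in the Rectum in both libraries. In the normal Rectum this rested on few of the 60 thinned cells: 1 for Hoxd12, 2 for Hoxd10, 3 for Hoxb9 and 4 for Hoxa10. For these members the interval of the share overlapped that of the next normal cluster. For Hoxa13, Hoxb13 and Hoxd13 it did not. The share of all genes that are highest in the Rectum was not computed, so neither count has a background. To set the members beside the whole transcriptome by another measure, the Rectum cells were compared with all stratified cells of the same library. These were 876 normal cells of the Anal Canal, Basal and Suprabasal clusters. In the wounded library they were 3434 cells of the Basal, Suprabasal, Regeneration and Wound_Stress clusters. A gene counted when it had at least 20 UMIs in both groups together and a log2 ratio of at least 1 in size, that is 2-fold.

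In the normal library 9 members had enough UMIs, and 7 of them were at least 2-fold higher in the Rectum, where 17.5% of all 11406 genes were. None was 2-fold lower, against 14.9% of all genes. The median log2 ratio was 2.01 over the 9 members and 0.10 over all genes. The log2 ratios were 4.47 (3.58 to 5.4) for Hoxb9, 4.4 (4.16 to 4.64) for Hoxb13, 4.4 (3.28 to 5.57) for Hoxa13, 3.57 (3.07 to 4.07) for Hoxd13, 2.01 for Hoxa10, 2.0 for Hoxd10 and 1.53 (0.85 to 2.17) for Hoxd11. Hoxa9 stood at 0.06 (-0.42 to 0.51), and Hoxa11, with 0 against 32 UMIs, gave only an upper bound of 0.32. Hoxd12, with 6 against 0 UMIs, was under the minimum of 20.

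In the wounded library all 10 had enough UMIs, and 9 were at least 2-fold higher in the Rectum, where 18.4% of all 14010 genes were. Again none was 2-fold lower, against 15.7%. The median was 3.68 over the members and 0.10 over all genes. Hoxd12 led with a log2 ratio of 5.74 (4.48 to 7.28), followed by Hoxb13 with 5.61 (5.42 to 5.81) and Hoxb9 with 5.26 (4.74 to 5.81). Hoxa11 reached 1.11 on 8 UMIs, with an interval that held 0 (-0.21 to 2.25). Hoxa9 was the exception, at -0.55 (-0.72 to -0.37). In both libraries the members higher in the Rectum were a larger share than the background, and Hoxa9 was not among them. In the normal library the count rests on few UMIs, and it fell to 3 members with the cells thinned. The clusters were made by the authors from these same cells, so these ratios are a description.

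**Figure D2:**
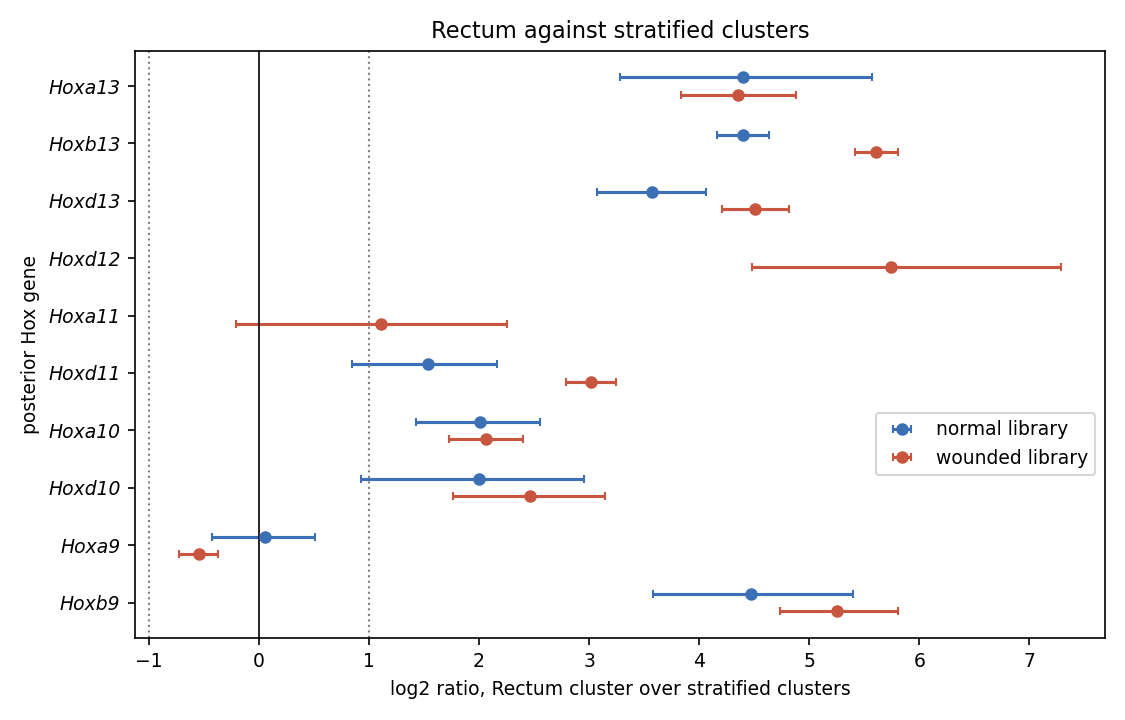
Log2 ratio of the Rectum cluster over the stratified clusters for each posterior Hox gene, with exact binomial 95% intervals, normal (blue) and wounded (red); dotted lines mark 2-fold, and members under 20 UMIs or with only a bound are not drawn. All points lie right of the 2-fold line except Hoxa9, at 0.06 and -0.55.

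Hoxb13 stood lower in the wounded stratified cells (6.78 CPM) than in the normal ones (25.9 CPM), and the wounded set includes Regeneration and Wound_Stress cells and has no cluster named Anal Canal. Set against each other, the Rectum clusters of the 2 libraries gave 1 member at least 2-fold higher after wounding, Hoxd11 with a log2 ratio of 1.02 (0.43 to 1.67), where 11.5% of all 10080 genes were, and 1 lower, Hoxd10 with -1.22 (-2.23 to -0.12), where 6.45% were. Both counts, of 9 members, were near the background. Hoxb13 was at -0.72 (-0.89 to -0.56), Hoxa10 at -0.96 (-1.52 to -0.37), and Hoxa13, Hoxb9, Hoxd12 and Hoxd13 had intervals that held 0. Fibroblast markers, all 7 of which had UMIs in the wounded Rectum, summed to 245 CPM there, against 5.68 CPM (2 of 7) in the normal Rectum, and their part in these differences was not tested. These are differences between 2 single libraries, in which wound, time since tamoxifen, pool and library cannot be told apart.

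Within the stratified epithelium of the normal library the members were not evenly spread. The Anal Canal cells were compared with the Basal and Suprabasal cells of the TZ. Of 7 members with enough UMIs, 6 were at least 2-fold higher in the Anal Canal, where 8.87% of all genes were, and none was lower, against 9.97%. The median was 2.69 over the members and 0.11 over all genes. The log2 ratios were 5.14 for Hoxa11 (2.56 to 10.5; 31 against 1 UMI), 3.58 (2.64 to 4.68) for Hoxd11, 3.47 (2.35 to 4.84) for Hoxd13, 2.69 for Hoxd10, 2.25 for Hoxa10 and 2.03 (1.58 to 2.5) for Hoxb13. Hoxa9 was at 0.40 (0.16 to 0.65). Hoxa13, with 9 against 3 UMIs, was under the minimum. Of the 53 Hoxb13 UMIs of the Basal and Suprabasal cells, 44 lay in 5 Basal cells rich in enteroendocrine genes, described below.

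In droplet data free RNA gives cells UMIs of genes that they do not express, so levels were also set beside those of genes of rectal identity, as a percent of the Rectum level. In the Anal Canal, Hoxb13 stood at 7.93% (6.84 to 9.14) of its Rectum level, Hoxd13 at 16.3% (12.7 to 20.7) and Hoxa13 at 7.61%, while Cdx1 and Hnf4a, transcription factors of the intestine, had 0 UMIs there. Cdx1 had 254 UMIs in the 63 Rectum cells. Krt8, a keratin of glandular epithelium, was at 0.924%. The 8 Anal Canal cells with at least 50 UMIs of colonocyte markers held 1 of the 190 Hoxb13 UMIs. In wounded Basal cells Hoxb13 stood at 7.95% (6.73 to 9.32) of its Rectum level, Cdx1 at 0.760% and Hnf4a at 1.59%. The 12 wounded Basal cells rich in colonocyte markers held 9 of the 151 Hoxb13 UMIs. In the Anal Canal Hoxb13 was thus above the proportion of Cdx1, Hnf4a and Krt8. For the wounded Basal cells the part of free RNA in the Hoxb13 level was not tested.

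In Regeneration, Suprabasal and Wound_Stress cells Hoxb13 stood at 0.975%, 1.17% and 0.729% of its Rectum level, and Cdx1 at 0.671%, 0.989% and 0.877%. Hnf4a was higher, at 2.91%, 3.72% and 3.50%. The Hoxb13 of these 3 clusters was thus at a lower proportion than Hnf4a, and the part of free RNA in it was not tested. In the wounded Suprabasal cluster, 9 cells with at least 50 UMIs of colonocyte markers held 13 of the 45 Hoxb13 UMIs. Barcodes that failed the filters held Hoxb13 at 92.5 CPM (normal) and 67.0 CPM (wounded). Hoxd11 stood at 76.6 CPM in the wounded barcodes that failed, as high as the 72.0 CPM of the Rectum cells.

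**Figure D3:**
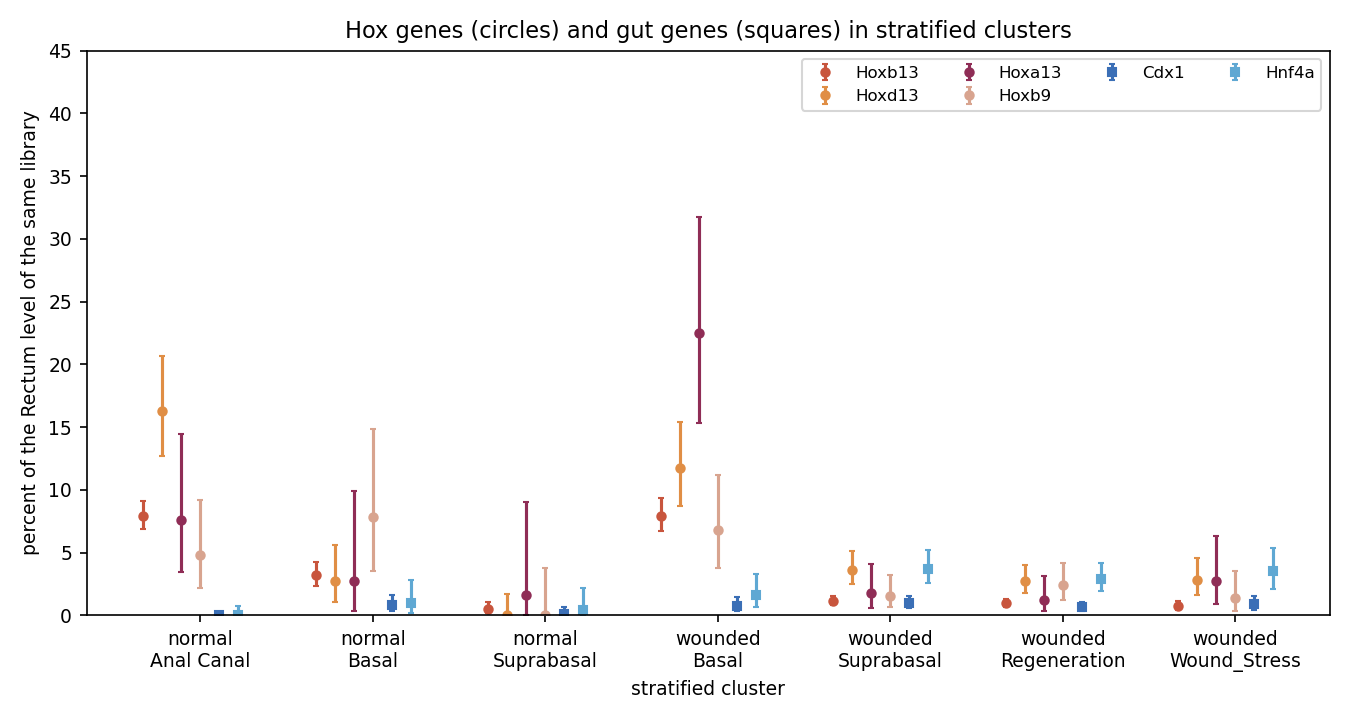
Level of the group 13 genes and Hoxb9 (circles) and of Cdx1 and Hnf4a (squares) in each stratified cluster, as a percent of their level in Rectum cells of the same library on a linear axis, with exact Poisson 95% intervals. Hoxb13 sits at 7.93% in the normal Anal Canal, where Cdx1 and Hnf4a are at 0, and at 7.95% in wounded Basal cells, and in the other wounded stratified clusters it sits beside Cdx1 (0.975%, 1.17% and 0.729%).

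The 2 layers of the TZ were then compared. In the normal library only 3 members had enough UMIs, and 2 of them, Hoxb13 at 2.72 (1.5 to 4.24) and Hoxa10 at 1.26 (-0.15 to 2.89), were at least 2-fold higher in Basal than in Suprabasal cells, where 17.1% of all genes were (none was lower, against 6.57%). Of the 47 Hoxb13 UMIs of the 257 Basal cells, 44 lay in 5 cells. These 5 cells held 2496 UMIs of enteroendocrine genes (Chga, Chgb, Pyy, Gcg, Insl5, Neurod1, Scg2), which mark hormone cells of the gut, and 8 of the 9 Hoxb9 UMIs. The other 252 Basal cells had 3 Hoxb13 UMIs (1.12 CPM) and 10 enteroendocrine UMIs. Without the 5 cells, 1 member was past 2-fold. The cells were picked out after their values had been seen, at a threshold of 10 enteroendocrine UMIs.

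**Figure D4:**
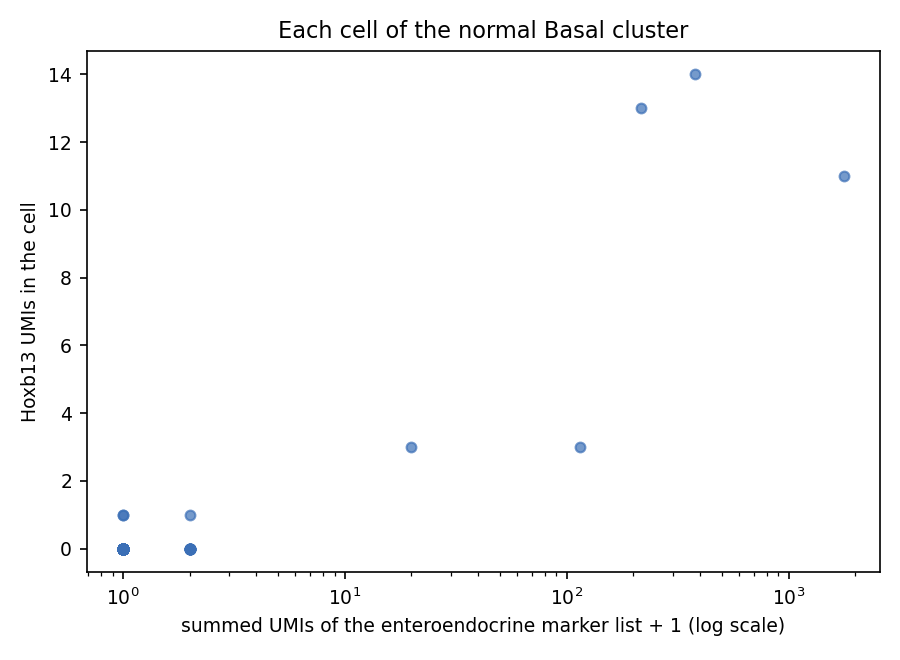
Hoxb13 UMIs against enteroendocrine UMIs plus 1 (log scale) in each of the 257 normal Basal cells. The 5 cells to the right, with 19 to 1770 enteroendocrine UMIs, hold 3 to 14 Hoxb13 UMIs each, and no other cell holds more than 1.

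Among wounded cells, 8 of 9 members with enough UMIs were at least 2-fold higher in Basal than in Suprabasal cells, where 11.3% of all genes were, and none was lower, against 9.85%. Hoxa11 led with 5.97 (3.38 to 11.3; 31 against 1 UMI), then Hoxa13 with 3.69 (2.32 to 5.41), and Hoxd11 and Hoxb13 both with 2.76. The median was 2.38 over the members and 0.14 over all genes. Hoxa9 was the member under 2-fold, at 0.53 (0.34 to 0.72). As these Basal cells share leading genes with the normal Anal Canal, their members were also set beside it: Hoxa9 (0.01), Hoxa11 (-0.39), Hoxd11 (0.40) and Hoxb9 (0.35) were within 2-fold, as were Hoxa10 (-0.44), Hoxb13 (-0.72), Hoxd10 (-0.95) and Hoxd13 (-0.80), and Hoxa13 was higher by 1.44 (0.34 to 2.69) on the log2 scale. Krt13 and Krt4, keratins of wet stratified lining, were at 1443 and 756 CPM in the wounded Basal cells, at 812 and 864 in the normal Anal Canal, and at 3 and 1 in the normal Basal cells. A difference between the Basal clusters of the 2 libraries therefore cannot be told apart from a difference in which cells bear that name. For wounded Basal over normal Anal Canal cells the share of all genes within 2-fold was not computed.

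Regeneration and Wound_Stress are the clusters that the study ties to the wound. Against Basal and Suprabasal cells of the same library, 1 of 9 members was at least 2-fold higher, where 8.43% of all genes were, and 6 were at least 2-fold lower, where 12.8% were. The one higher was Hoxa9, at 1.40 (1.29 to 1.51). The lower ones were Hoxa11 at -4.24 (-7.35 to -2.27; 2 against 32 UMIs), Hoxa13 at -2.28, Hoxb13 at -1.95 (-2.39 to -1.53), Hoxd10 at -1.75, Hoxd11 at -1.48 (-1.83 to -1.14) and Hoxd13 at -1.19. The median was -1.48 over the members and 0.02 over all genes. Hoxa10 was at -0.50 and Hoxb9 at -0.70. Most reference UMIs of the lower members came from the anal canal-like Basal cells, with 31 of 32 for Hoxa11 and 182 of 236 for Hoxd11. Against the Suprabasal cells alone, Wound_Stress cells had Hoxa9 higher by 2.0 (1.86 to 2.15), Hoxa10 by 1.08 (0.43 to 1.74), and Hoxb13, Hoxd11 and Hoxd13 within 2-fold. Hoxd10 was lower there, at 0.402 against 1.21 CPM, on 3 UMIs. In Regeneration cells all 6 lower members were within 2-fold of the Suprabasal level, such as Hoxb13 (3.23 against 3.89 CPM) and Hoxd11 (4.38 against 4.67 CPM). Markers of the anal gland, all 10 of which had UMIs in each of these clusters, summed to 2899 CPM in Regeneration and 1796 in Wound_Stress cells, against 274 in Basal and 550 in Suprabasal cells. Oxtr, Avpr1a and Clstn3 were among the 20 leading genes of the Wound_Stress cells, and also led anal gland-like cells left out of the normal table. Their part in the Hoxa9 difference was not tested.

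The study describes Hybrid cells as a state between TZ and rectum. Of 9 members with enough UMIs, 7 were at least 2-fold higher in Hybrid than in stratified cells, where 17.3% of all genes were, and none was lower, against 6.61%. Hoxb9 led at 5.26 (4.64 to 5.89), then Hoxb13 at 3.99 (3.70 to 4.28), Hoxd13 at 2.82 and Hoxa13 at 2.73. The median was 1.83 over the members and 0.29 over all genes. When the 316 Hybrid cells were clustered on their own, with no Hox gene among the variable genes, 59 of them formed a cluster led by Scg2, Sst, Gcg, Insl5 and Pyy, enteroendocrine-like by the marker list. These 59 cells held 128 of the 160 Hoxb13 UMIs, 52 of the 57 Hoxb9 UMIs and 11 of the 12 Hoxa13 UMIs.

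The enteroendocrine-like cells stood at 200 CPM for Hoxb13, 81.3 for Hoxb9, 48.5 for Hoxd11 and 28.1 for Hoxd13. Against the Rectum cells, Hoxb9 was higher by 1.08 (0.60 to 1.54), Hoxb13 was at -0.73 (-0.999 to -0.46) and Hoxd13 was lower by 1.43 on the log2 scale, an order of members that differed from that of the Rectum. The other 257 Hybrid cells stood at 37.9 CPM for Hoxb13, 5.93 for Hoxb9 and 20.2 for Hoxd13. Against the stratified cells, 4 of 9 members with enough UMIs were then at least 2-fold higher, where 11.7% of all genes were (Hoxd13 2.60, Hoxb9 2.56, Hoxb13 2.49 and Hoxd11 1.09), while Hoxa10 (-0.08), Hoxa13 (-0.04) and Hoxd10 (-0.16), on 5, 1 and 1 UMIs, had intervals that held 0. None was 2-fold lower, against 6.88% of all genes. Of these cells, 140 had a median depth of 1114 UMIs and were led by Lars2, 60 were led by Mmrn1, Ccl21a and Lyve1 beside Krt13 and Krt4, 39 were inner root sheath-like and 18 were led by Myl9, Acta2 and Tagln. Hybrid levels thus average over unlike cells.

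The 397 wounded Rectum cells also fell into subclusters, here 4. At this split Hoxb13 was within 2-fold across them. It stood at 311 CPM in 132 cells led by Nxpe2 and Tm4sf5 and at 369 in 104 goblet-like cells (which immunoglobulin genes led). It was at 301 in 93 cells with Clca4b and Ly6g, and at 334 in 68 cells led by Eln, Col3a1 and Col1a1. Hoxd11 differed more, with 45.7 CPM (35.1 to 58.5) in the goblet-like cells and 126 (95.1 to 164) in the cells with Clca4b. Hoxa9 went from 42.8 CPM (32.6 to 55.2) in the goblet-like cells to 103 (67.5 to 151) in the cells led by Eln. Between some pair of subclusters 4 of 9 members with enough UMIs differed by at least 2-fold (Hoxa9, Hoxa10, Hoxa13 and Hoxd11), a smaller share than the 56.9% of all genes that did. With a finer split into 5 subclusters it was 7 of 8 members, Hoxb13 now among them, against 64.9% of all genes. Fibroblast markers summed to 3904 CPM in the cells led by Eln and to between 3.63 and 13.5 CPM in the other subclusters, and their part was not tested. Depth differed too, with medians of 15077.5, 12890, 2690 and 3206 UMIs.

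Among the cells left out of the deposited tables, 35 normal and 180 wounded cells were fibroblast-like (Col1a1, Col1a2, Col3a1, Dcn, Lum, Pdgfra, Pdgfrb), although PDGFRa was used to gate such cells out. All 7 fibroblast markers had UMIs in them, though in the wounded clusters none was among the 10 leading genes. Fibroblasts below an epithelium keep Hox expression of their own, and here they carried another set than the rectal epithelium. In the 180 wounded cells Hoxa10 stood at 72.7 CPM (59.8 to 87.5), Hoxa13 at 68.1 (55.6 to 82.5), Hoxd11 at 39.9, Hoxa11 at 26.2 (18.7 to 35.7) and Hoxd13 at 21.6. Hoxb13 had 5 UMIs (3.27 CPM), Hoxb9 had 3 and Hoxd12 had 0. In the 35 normal cells Hoxa10 stood at 88.4 CPM (19 UMIs), Hoxa11 at 55.8 (12 UMIs), Hoxd13 at 32.6 and Hoxa13 at 18.6 (4 UMIs), with 0 UMIs of Hoxb13 and Hoxb9, which allows up to 14.0 CPM. Hoxb9 and Hoxb13, the B cluster members, were thus at or near 0 in the fibroblast-like cells of both libraries.

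Set against wounded Rectum cells, the fibroblast-like cells had Hoxa11 higher by 3.75 (2.64 to 5.06), Hoxa10 by 1.47 (1.07 to 1.86) and Hoxa13 by 1.46 (1.05 to 1.86) on the log2 scale. Hoxb13 was lower, at -6.66 (-8.29 to -5.43), as was Hoxb9, at -4.29 (-6.58 to -2.72), and Hoxd13, at -1.81 (-2.38 to -1.29). In the normal library Hoxb13 was lower by at least 5.29 on the log2 scale, with 0 against 385 UMIs, and Hoxd13 was at -1.55 (-2.92 to -0.42). Hoxa10 was at 0.79 (-0.09 to 1.63) and Hoxa13 at -0.54 (-2.55 to 1.05) there, so for these 2 the difference was not detectable at this depth.

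**Figure D5:**
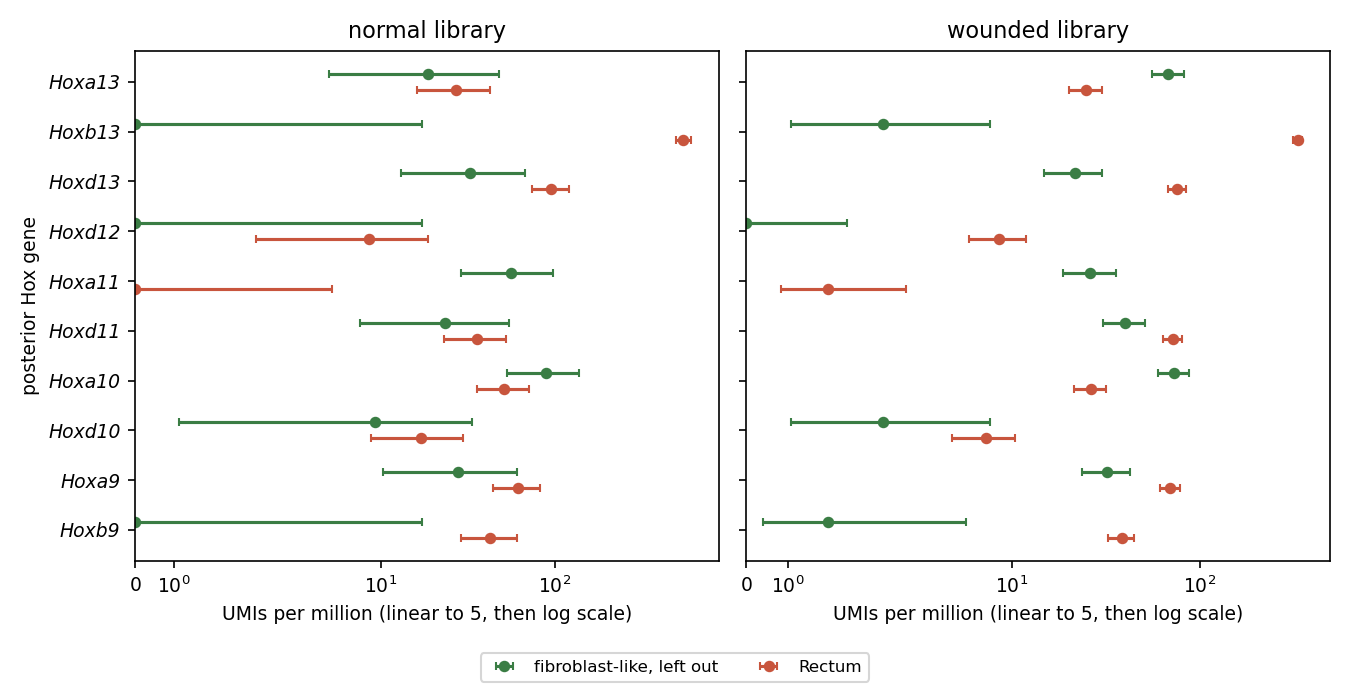
Level of each posterior Hox gene in fibroblast-like cells left out of the tables (green) and in Rectum cells (red), in CPM on an axis that is linear up to 5 and log above, with exact Poisson 95% intervals, normal library at left and wounded at right. Hoxb13 and Hoxb9 are at or near 0 in the fibroblast-like cells and high in the Rectum, and Hoxa11 has the opposite order.

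Against the stratified cells, 4 of 7 members with enough UMIs were at least 2-fold higher in the normal fibroblast-like cells, where 26.8% of all genes were, and 1 (Hoxa9, at -1.07, with an interval of -2.52 to 0.06 that held 0) was lower, where 11.4% were. In the wounded library 6 of 9 were higher, where 26.1% of all genes were, and 2 were lower, where 13.4% were. These were Hoxa9 at -1.66 (-2.10 to -1.26) and Hoxb13 at -1.05 (-2.69 to 0.19; 5 UMIs), the latter with an interval that held 0. Hoxa13 led there with 5.80 (5.29 to 6.34), and Hoxa11 followed with 4.86 (4.17 to 5.57). The 2 wounded clusters behind this group, of 135 and 45 cells, held Hoxa10 alike, at 73.4 and 70.2 CPM, and Hoxd11 unlike, at 29.4 (20.3 to 41.0) and 72.9 (48.1 to 106). Smooth muscle markers summed to 6442 CPM in the larger cluster and to 1099 CPM in the smaller one.

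The anal gland-like cells, also without a name in the deposited tables, had another pattern again. Hoxa9 stood at 147 CPM (135 to 159) in 329 normal cells and at 277 (260 to 294) in 216 wounded cells, higher than in the stratified cells by 1.32 (1.15 to 1.49) and 1.44 (1.34 to 1.54) on the log2 scale. Hoxb13 had 5 and 4 UMIs in them, and Hoxa11 had 0 in both. Hoxa9 was the member more than 2-fold higher in these cells in both libraries, while Hoxb13, Hoxd11 and Hoxd13 were more than 2-fold lower. The share of all genes past 2-fold was not computed for this comparison, so these calls have no background. The name of the cells rests on a marker list of lipid-making glands. None of its markers was among the 10 leading genes of the 216 wounded cells, or of normal clusters of 138 and 93 cells. In a normal cluster of 98 cells, 2 were.

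Other genes of the Hox system were looked at in the Rectum against the stratified cells. Of the other posterior Hox genes, mainly of the C cluster, 1 had enough UMIs in the normal library and was lower (Hoxd9, -2.05), and 2 in the wounded library, neither past 2-fold. Of the central Hox genes, 2 of 6 were higher and 1 lower in the normal library, and 5 of 9 and 2 in the wounded one. Hoxd8 was lower in both, with 1.95 against 15.7 CPM in the wounded library, and Hoxa5 and Hoxb6 were higher in both. Of the anterior genes, 2 of 4 were higher and none lower, and 3 of 8 and 2.

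Hox proteins bind DNA with cofactors of the TALE family, and these were compared in the same way. None of the 6 TALE genes with enough UMIs was higher in normal Rectum and 4 were lower, where 14.9% of all genes were lower (median log2 ratio -1.03 over the list). In the wounded library 0 of 7 were higher and 3 lower, where 15.7% were lower, and the median was -0.37. Meis2 had 0 UMIs in the normal Rectum against 171 CPM in the stratified cells, so it was lower by at least 5.33 on the log2 scale, and Meis1 had 0 against 65.2 CPM, at least 3.94 lower. After wounding Meis2 stood at 11.2 against 115 CPM and Meis1 at 11.4 against 90.8. Rectum cells thus had high group 13 genes and little Meis1 and Meis2. Of the RNAs of the Hox clusters, Hottip, which lies beyond Hoxa13 at the end of the A cluster, had 6 against 1 UMI in the normal and 48 against 7 UMIs in the wounded library (log2 ratio 5.98; 4.83 to 7.37), and Hoxaas3 was higher by 2.51 and 3.03. Of the genes of distal gut identity, Cdx1, Hnf4a and Hnf4g were higher in the Rectum in both libraries. Of 9 chromatin regulators of Hox clusters, 1 was higher and 1 lower in the normal library and 1 higher in the wounded one.

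Over the 12 groups of both libraries (10 named clusters and the cells left out of each), the genes whose log2 levels were most like those of Hoxb13 among 11123 genes were 0610040J01Rik, Smim22 and Tmc4 (Pearson r 0.98 for the first), and for Hoxd13 they included Prkcz (0.98) and Pgm3. For Hoxa9 they were Hspd1 (0.95), a mitochondrial chaperone, Tkt and Pxmp4. Hoxd13 and Hoxd11 had an r of 0.93, Hoxd13 and Hoxb13 of 0.92, and Hoxa9 and Hoxb13 of -0.33. These values describe groups that share libraries and depth, and no test was made on them.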

How the data were processed

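Single-cell RNA-seq (10x, 3' end) was analysed from 2 libraries, 1 normal and 1 wounded, each a pool of mice. The deposited count matrices hold raw UMI counts per barcode, made by the authors with Cell Ranger on mm10 (3.1.0 in the submitters' processing notes, with Seurat 3.2.2; the file header of the wounded library names another release). The deposited cluster tables hold natural log values, log of 1 plus a whole-number count, with a cluster name per cell; the step behind the log is not given in the sources used here, and the names alone were used for grouping.

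Cells with over 200 and under 5000 detected genes and under 25% mitochondrial UMIs were kept. So was 1 normal cell that has a deposited cluster name but did not pass these limits. UMIs were summed per group and divided by the group's total. A log2 ratio was given with an exact binomial interval where both groups together held at least 20 UMIs, and counted from 2-fold. With 0 UMIs in a group it was bounded against 3 UMIs. For shares, cells were thinned to 2000 UMIs and shallower ones left out. Since each condition had a single library, no test could be run. Unnamed, Rectum and Hybrid cells were clustered in Seurat 5.3.0 (R 4.3.3; 2000 variable genes without Hox genes, 10 principal components, resolution 0.2, cell-cycle scores regressed) and named from marker lists. In all, 3 naming rules were tried, and the lead of 2.5 on the log2 scale that a list needed over the next was set after the clusters had been seen; with a lead of 1 the same numbers of cells, 35 and 180, were fibroblast-like, but a further wounded cluster of 209 cells became anal gland-like, which gave 425 such cells in place of 216, with Hoxa9 at 249.8 CPM and higher than in the stratified cells by 1.30 on the log2 scale. The thresholds of 10 enteroendocrine and 50 colonocyte UMIs were also set after seeing the data. The sort used scatter to remove doublets, and no doublet caller was run; leaving out the 5% of cells with the most UMIs was an alternative. Python 3.11.15, numpy 2.4.6, scipy 1.17.1 and pandas 2.3.3 were used, and the ratio was tested on simulated data. Positions are from GENCODE (GRCm38), where no member shares exon bases on its strand with another gene of either count table.

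All 10 members are named, other lists are given by counts, some of their genes are not reported here, and the genes most like a member are the 3 with the highest Pearson correlation of log2(CPM + 1). The members and lists were chosen with earlier results of these data known. Other settings were the mean of per-cell CPM, a mitochondrial limit of 10%, a minimum of 100 UMIs, a 4-fold limit, thinning, the whole numbers behind the log tables, and other cluster resolutions.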

Additional observations from a re-analysis of the deposited data

How the results depend on the processing

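Of the counts of members past 2-fold, 58 values under other settings stayed within 1.5 times, 25 were lower and 1 was higher. Of the log2 ratios of single members, 371 stayed within the interval of the reported value, 67 moved out of it, and 4 that had been past 2-fold changed sign. With a minimum of 100 UMIs the counts were 4 for normal Rectum over stratified cells (7 as reported), 4 for Hybrid (7), 0 and 3 for Basal over Suprabasal cells, normal and wounded (2 and 8), 3 for Anal Canal (6), 4 for Regeneration and Wound_Stress (7), 2 for normal fibroblast-like cells (5) and 1 for wounded over normal Rectum (2). With the cells thinned they were 3, 4, 1, 3, 4, 1 and 1 for the same comparisons without Anal Canal, and 5 for wounded fibroblast-like cells (8). At 4-fold they were 4 for Hybrid, 1 for normal Basal over Suprabasal, 2 for Regeneration and Wound_Stress, 3 and 5 for fibroblast-like cells and 0 for wounded over normal Rectum. Fewer UMIs and a stricter limit leave fewer members by construction. With only cells under 10% mitochondrial UMIs, 1 member differed between the Rectum clusters. Without cells rich in enteroendocrine or colonocyte markers, a choice made after seeing the data, 1 member was past 2-fold in normal Basal over Suprabasal cells. Without the enteroendocrine-like cells, likewise chosen later, 4 were past it in Hybrid cells, and Hoxa10 (-0.082), Hoxa13 (-0.038) and Hoxd10 (-0.16) changed sign, as did Hoxd10 (-0.19) with the mean of per-cell CPM, whose cause was not tested. Between Rectum subclusters 7 members differed at resolution 0.4, against 4. Normal fibroblast-like cells without cell-cycle regression were not run, since no cluster met the naming rule. No paired analysis was possible because the 2 groups hold 1 library each and share fewer than 2 replicate numbers. Depth limits Hoxa11, Hoxd10 and Hoxd12 most, and leaving out a replicate is not possible with 1 library per condition.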
